A study of Homo sapiens with 6 samples.

Results

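The genes described here are 9 mouse genes of fat cells and of fatty acid uptake, chosen by a fixed list of Ensembl IDs from the 77134 rows of a mouse gene count table: Adipoq, Lep, Plin1, Fabp4, Lpl, Cfd, Pparg, Cd36 and Car3. The list was chosen with earlier results of these data known. All 9 genes were found, each as 1 row. The libraries came from subcutaneous tumours of A549, a human lung adenocarcinoma line, in athymic BALB/c nude mice. The 3 HIF1A-AS3 overexpression tumours grew from A549 cells stably infected with the lentivirus pLV-CMV-HIF1A-AS3-EGFP-Neo, in which a CMV promoter drives the antisense RNA of the human HIF1A locus. The 3 vector control tumours grew from A549 cells carrying pLV-CMV-EGFP-Neo, so EGFP and the neomycin resistance cassette were shared by both groups. The labels give no age of the mice or of the tumours, do not say whether the infected lines were single clones, and do not tell whether each tumour came from its own mouse. P-values therefore measure the spread between these tumours.

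Because every row is a mouse gene, the values are read here as RNA of host cells in and around the graft, although the labels give Homo sapiens as the organism. Reads of human RNA that match a mouse transcript would be counted too, and how many did so was not tested. Markers of the A549 cells and HIF1A-AS3 itself, all human RNAs, were not analysed here, and the group labels were not checked against them. In bulk tumour RNA, fewer cells of a type and less RNA per cell cannot be told apart.

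White adipocytes store triglyceride in a single large droplet and lie directly beside a subcutaneous graft. Triglyceride in circulating lipoproteins is split by lipoprotein lipase on the wall of capillaries, the freed fatty acids enter cells with the help of CD36, and fatty acid binding proteins carry them inside the cell. PPARG, a nuclear receptor, is the master regulator of adipocyte formation and activates several of these genes, but it also acts in macrophages, endothelium and epithelial cells. Macrophages and endothelial cells can likewise express Fabp4, Lpl and Cd36, whereas Adipoq and Plin1 are close to restricted to adipocytes.

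The 6 libraries held 4167784 to 4769157 estimated counts. Overexpression replicate 1 stood apart: its TMM scaling factor, which corrects for a few abundant genes taking up counts, was 0.742, against 1.024 to 1.098 in the other 5, it had counts on 17406 genes, against 18796 to 19063, and its 20 most abundant genes held 15.7% of counts, against 11.0% to 12.8%. Levels are given as CPM (counts scaled to a common library size of 1000000) after TMM scaling, where 1 count stood for 0.211 to 0.284 CPM and 3 counts for 0.632 to 0.852 CPM. A gene with no count in a library could lie anywhere up to that second range. These limits cover counting error only.

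Overexpression tumours were set against vector control tumours to ask what more HIF1A-AS3 in the cancer cells does to the tumour, read here on host genes. Products that define mature adipocytes were at or near 0 in every library of both groups. Of the lipid uptake genes, Lpl and Cd36 were lower in all 3 overexpression tumours than in all 3 controls, with means of 14.1 and 31.2 CPM for Lpl and of 0.224 and 3.76 CPM for Cd36 in overexpression and control tumours. The groups kept apart in this direction in 6.36% of all genes tested and in 4.73% of all rows with a count. Cd36 had only 0, 1 and 2 counts in the overexpression libraries. Pparg had at least 211 counts in every library, and its groups overlapped. No member passed the threshold: of the 9, only Fabp4, Lpl and Pparg had enough counts for the test across all genes, and 0 of these 3 reached an adjusted p below 0.05 in edgeR's quasi-likelihood test, beside 0.0158% of the 12637 genes tested (2 genes). At an unadjusted p below 0.05 there was 1 member, Lpl, beside 6.29% of all genes tested in either direction and 2.71% with the lower level in overexpression tumours. DESeq2 and limma-voom on the same genes also called 0 members, beside 0.222% and 0.0554% of all genes.

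**Figure D1:**
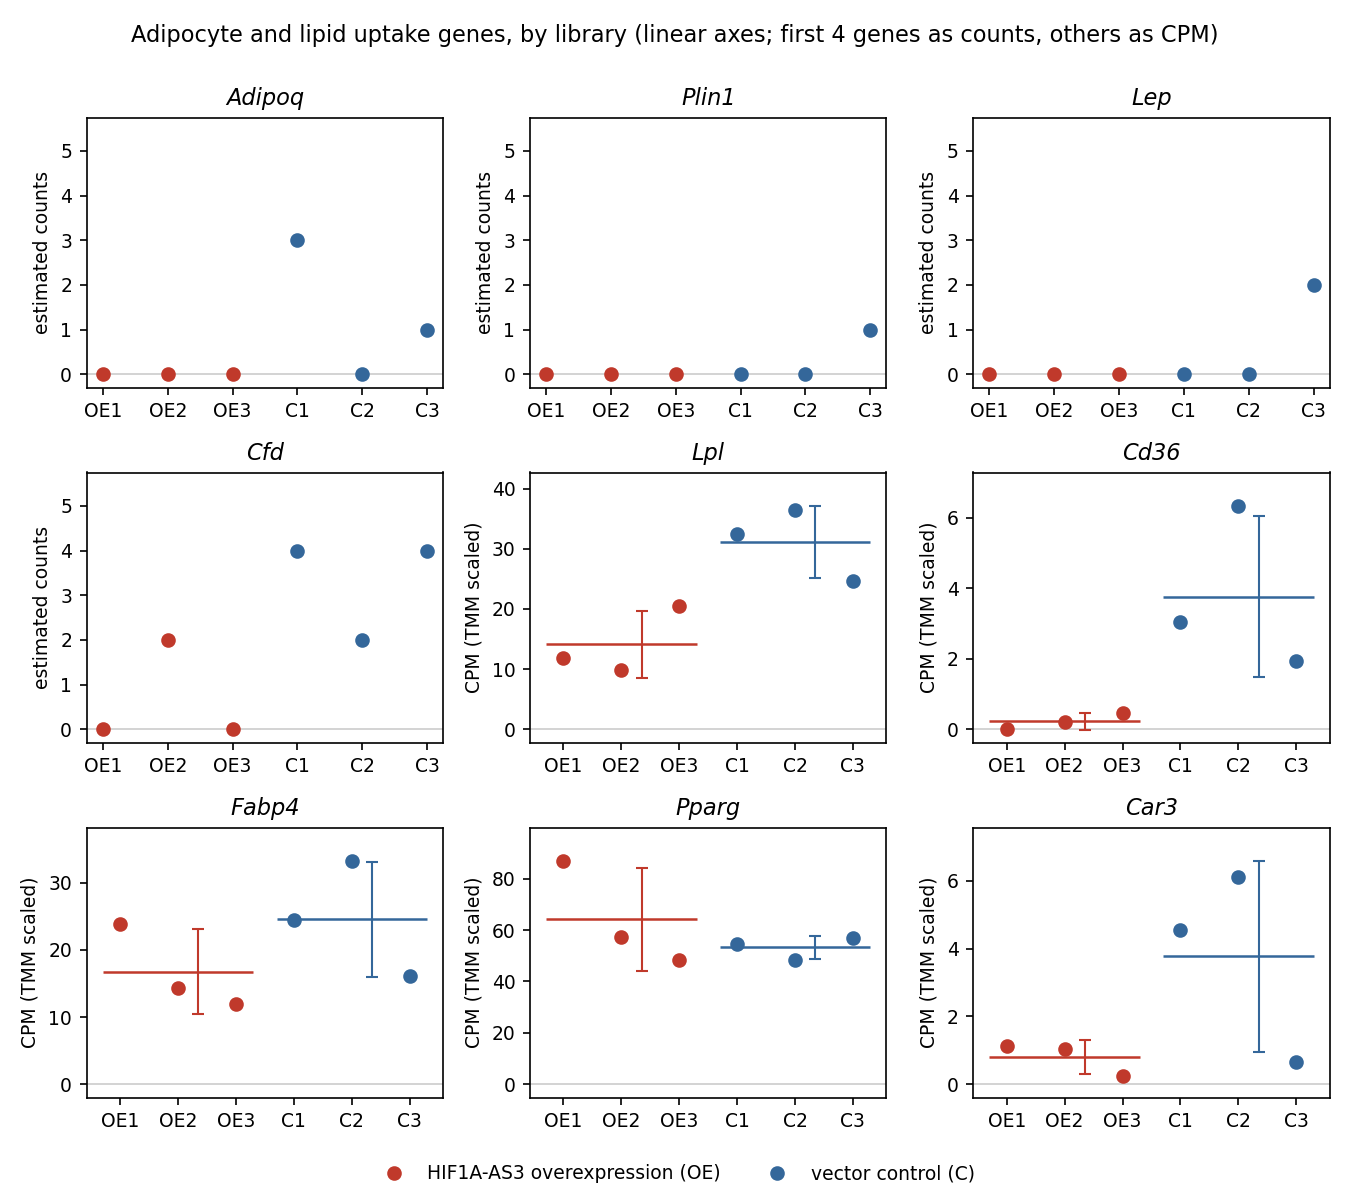
Each panel shows 1 gene in the 3 HIF1A-AS3 overexpression libraries (OE1 to OE3, red) and the 3 vector control libraries (C1 to C3, blue), as estimated counts for Adipoq, Plin1, Lep and Cfd and as TMM-scaled CPM for the other 5; lines are group means and bars the SD (n = 3). The first 4 genes never exceed 4 counts, Lpl and Cd36 do not overlap between groups, and Fabp4, Pparg and Car3 do.

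Adipoq (ENSMUSG00000022878) encodes adiponectin, a hormone secreted by adipocytes. It had 0 estimated counts in all 3 overexpression libraries, against 3, 0 and 1 in controls 1, 2 and 3. Plin1 (ENSMUSG00000030546) encodes perilipin 1, the protein that coats the adipocyte lipid droplet. It had 0 counts in all 3 overexpression libraries, and in controls it had 1 count in replicate 3 and 0 in replicates 1 and 2. Both genes thus sat at or under the limit of detection in each library of either group, and no fold change is given.

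Lep (ENSMUSG00000059201) encodes leptin, the satiety hormone of white fat. Its counts were 0 in all 3 overexpression libraries, against 0, 0 and 2 in controls 1, 2 and 3, again at or under the limit in each library. Cfd (ENSMUSG00000061780) encodes complement factor D (adipsin), a serine protease of the alternative complement pathway that mouse adipocytes secrete in quantity. It had 0, 2 and 0 counts in overexpression replicates 1, 2 and 3, against 4, 2 and 4 in controls 1, 2 and 3. In CPM these were 0, 0.421 and 0 in overexpression tumours and 0.865, 0.452 and 0.859 in control tumours. The groups did not overlap in CPM, though overexpression replicate 2 and control replicate 2 tied at 2 counts and were set apart by the scaling alone. Effective depth is a library's total over the genes tested times its TMM factor. The summed Cfd count per effective depth in overexpression tumours was 0.217 of that in controls. Its counting interval, 0.0231 to 1.02, reaches equality.

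Together the 4 adipocyte products had 0, 2 and 0 counts in overexpression replicates 1, 2 and 3, against 7, 2 and 8 in controls 1, 2 and 3. Their summed level ranged from 0 to 0.421 CPM in overexpression libraries and from 0.452 to 1.72 CPM in control libraries. Over each whole group this came to 2 of 13697908 counts in overexpression tumours (exact 95% Poisson interval of the count 0.242 to 7.22) and 17 of 12667255 counts in control tumours (9.90 to 27.2). All 4 genes were above 0 in a single library, control replicate 3, and all 4 were at 0 in overexpression replicates 1 and 3. Mature fat RNA was thus barely detectable in either group. The ranges of the summed level did not overlap, and no test was made on the sum. Overexpression replicate 2 and control replicate 2 tied at 2 counts, so the scaling alone kept the ranges apart. Cfd supplied all the counts of these 2 libraries, and 10 of the 17 counts in control tumours. Adipoq, Lep and Plin1 were at 0 in control replicate 2 and in every overexpression library. Without Cfd the ranges would therefore meet at 0.

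Lpl (ENSMUSG00000015568) encodes lipoprotein lipase, which frees fatty acids from circulating triglyceride. It had 42, 47 and 89 estimated counts in overexpression replicates 1, 2 and 3, against 150, 161 and 115 in controls 1, 2 and 3. In CPM these were 11.9, 9.90 and 20.5 in overexpression tumours and 32.4, 36.4 and 24.7 in control tumours. The groups did not overlap: the highest overexpression library, replicate 3, lay under the lowest control, also numbered 3. Groups kept apart with overexpression lower in 6.36% of all genes tested.

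Lpl averaged 14.1 ± 5.61 CPM in overexpression tumours and 31.2 ± 5.95 CPM in control tumours (SD, n = 3 each). The fitted log2 fold change was -1.14 (standard error 0.31, 95% interval -1.85 to -0.43), not adjusted for the number of genes. Its p was 0.0061 before adjustment and its adjusted p 0.70 (edgeR quasi-likelihood test, Benjamini-Hochberg over all genes tested), so it did not pass. By p it stood 71st of 12637 genes, and 1.76% of genes had a log2 fold change as low or lower. The spread between libraries exceeded counting error in both groups: the coefficient of variation of Lpl was 39.8% in overexpression tumours, where counting alone gives about 13.0%, and 19.1% in controls, where counting gives 8.39%.

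Cd36 (ENSMUSG00000002944) encodes a scavenger receptor that takes up long-chain fatty acids and oxidised lipoproteins. It had 0, 1 and 2 counts in overexpression replicates 1, 2 and 3, against 14, 28 and 9 in controls 1, 2 and 3. Every overexpression library thus lay at or under the limit of 3 counts and every control above it. In CPM the overexpression libraries ranged from 0 to 0.460 and the controls from 1.93 to 6.33. The control libraries also differed among themselves by more than counting error, with a coefficient of variation of 60.8% where counting gives 24.3%.

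Summed over libraries, Cd36 had 3 counts in overexpression tumours and 51 in controls, a ratio per effective depth of 0.0639 with a counting interval of 0.0128 to 0.198. That interval holds no spread between tumours. Cd36 missed the filter on low counts, which asks for about 10 counts in 3 libraries, and so was not among the genes tested. With no filter, the same edgeR test over 25492 rows gave Cd36 a log2 fold change of -3.84 (standard error 0.83, unadjusted p = 6.3e-05, adjusted p = 0.084), ranking it 19th. In the 5 other settings that tested Cd36 its adjusted p was 0.14 to 1, and its log2 fold change was at or below -3.43. All 5 kept controls 1 and 2, its highest libraries, since Cd36 missed the filter when either was left out. In the fit with no filter 0.0549% of rows passed the threshold, and the groups kept apart with overexpression lower in 4.73% of these rows.

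Fabp4 (ENSMUSG00000062515) encodes the fatty acid binding protein of adipocytes, also known as aP2, which is found in macrophages and capillary endothelium too. It had 84.0, 68.0 and 52.0 estimated counts in overexpression replicates 1, 2 and 3, against 113, 147 and 75.0 in controls 1, 2 and 3. In CPM these were 23.9, 14.3 and 12.0 in overexpression tumours and 24.4, 33.2 and 16.1 in control tumours. The groups overlapped, since overexpression replicate 1 lay above control replicate 3.

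Fabp4 averaged 16.7 ± 6.30 CPM in overexpression tumours and 24.6 ± 8.57 CPM in control tumours (SD, n = 3 each). In edgeR its log2 fold change was -0.56 (standard error 0.35, 95% interval -1.37 to 0.24, adjusted p = 0.72). The interval runs from a fold of 0.386 to one of 1.18, so at this spread both equal levels and a much lower level in overexpression tumours lie within it. Its estimates were not whole numbers in any of the 6 libraries to within 0.001, as can arise when reads are shared with a similar gene.

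Pparg (ENSMUSG00000000440), the nuclear receptor, was present in every library. It had 306, 272 and 211 estimated counts in overexpression replicates 1, 2 and 3, against 253, 214 and 265 in controls 1, 2 and 3. In CPM these were 86.9, 57.3 and 48.5 in overexpression tumours and 54.7, 48.4 and 56.9 in control tumours. The groups overlapped, and overexpression replicate 1 was the highest library by a wide margin.

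Pparg averaged 64.3 ± 20.1 CPM in overexpression tumours and 53.4 ± 4.43 CPM in control tumours (SD, n = 3 each). In edgeR its log2 fold change was 0.27 (standard error 0.24, 95% interval -0.29 to 0.82, adjusted p = 0.79). The high value of overexpression replicate 1 came with its low scaling factor. Scaled by library totals alone, Pparg was at 64.2, 58.4 and 49.4 CPM in overexpression tumours and 59.7, 51.3 and 62.2 CPM in control tumours, and the log2 fold change was -0.01, where the median over all genes was -0.21. Without overexpression replicate 1 it was -0.04. Among the controls Pparg varied by 8.30%, little more than the 6.40% that counting gives. Among the overexpression tumours it varied by 31.3%, where counting gives 6.17%.

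Car3 (ENSMUSG00000027559) encodes carbonic anhydrase 3, a cytosolic enzyme abundant in adipocytes and in slow skeletal muscle. It had 4, 5 and 1 counts in overexpression replicates 1, 2 and 3, against 21, 27 and 3.49 in controls 1, 2 and 3. Controls 1 and 2 were high, while control replicate 3 lay below overexpression replicates 1 and 2, so the groups overlapped. The mean level was 0.807 ± 0.501 CPM in overexpression tumours and 3.76 ± 2.81 CPM in control tumours (SD, n = 3 each). Car3 also missed the filter. With no filter edgeR put its log2 fold change at -2.19 (standard error 0.76, unadjusted p = 0.0087, adjusted p = 0.73), and 2.48% of rows in that fit were lower at an unadjusted p below 0.05. Muscle and other marker lists were not analysed here, so the part of muscle in the Car3 counts was not tested.

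The members did not order the libraries alike. Control replicate 2 was the highest of the 6 libraries for Fabp4, Lpl, Cd36 and Car3, and the lowest for Pparg, at 48.4 CPM beside 48.5 CPM in overexpression replicate 3. Control replicate 1 was the second highest for the same 4 genes. Control replicate 3, in which all 4 adipocyte products were above 0, was the lowest control for Fabp4, Lpl, Cd36 and Car3. Within the overexpression group, replicate 3 was the highest for Lpl and Cd36 and the lowest for Fabp4, Pparg and Car3. Control replicate 1, with 7 counts of the adipocyte products, was close to control replicate 3, with 8.

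Counts relative to Pparg in the same library do not depend on the scaling of libraries. Lpl stood at 13.7, 17.3 and 42.2 counts per 100 Pparg counts in overexpression replicates 1, 2 and 3, against 59.3, 75.2 and 43.4 in controls 1, 2 and 3. The groups did not overlap, but overexpression replicate 3 and control replicate 3 lay next to each other. Fabp4 stood at 27.4, 25.0 and 24.6 per 100 Pparg counts in overexpression tumours and at 44.6, 68.7 and 28.3 in control tumours, which did not overlap either, in contrast to its CPM. In CPM, Pparg itself was highest in overexpression replicate 1 and lowest in control replicate 2. Relative to CPM, dividing by it lowers any gene in the former and raises it in the latter. The share of all genes whose ratio to Pparg keeps the groups apart was not computed. Gene length differs between genes, so only the differences between libraries can be read from these ratios.

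Cd36 stood at 0, 0.368 and 0.948 counts per 100 Pparg counts in overexpression tumours and at 5.53, 13.1 and 3.40 in control tumours, with no overlap. For Car3 the values were 1.31, 1.84 and 0.474 in overexpression tumours and 8.30, 12.6 and 1.32 in control tumours, which overlapped. An exact two-sided permutation of the 6 libraries, with 20 assignments, gave p = 0.1 for Lpl, Fabp4 and Cd36, the smallest p that 3 against 3 tumours allow, and p = 0.2 for Car3. Adjusted over these 4 ratios, p was 0.133 for the first 3 and 0.2 for Car3 (exact permutation, Benjamini-Hochberg). With 3 tumours a group no ratio could have reached the threshold of 0.05, so these p-values do not bear on whether the ratios differ. The ratios share their denominator and are not independent.

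**Figure D2:**
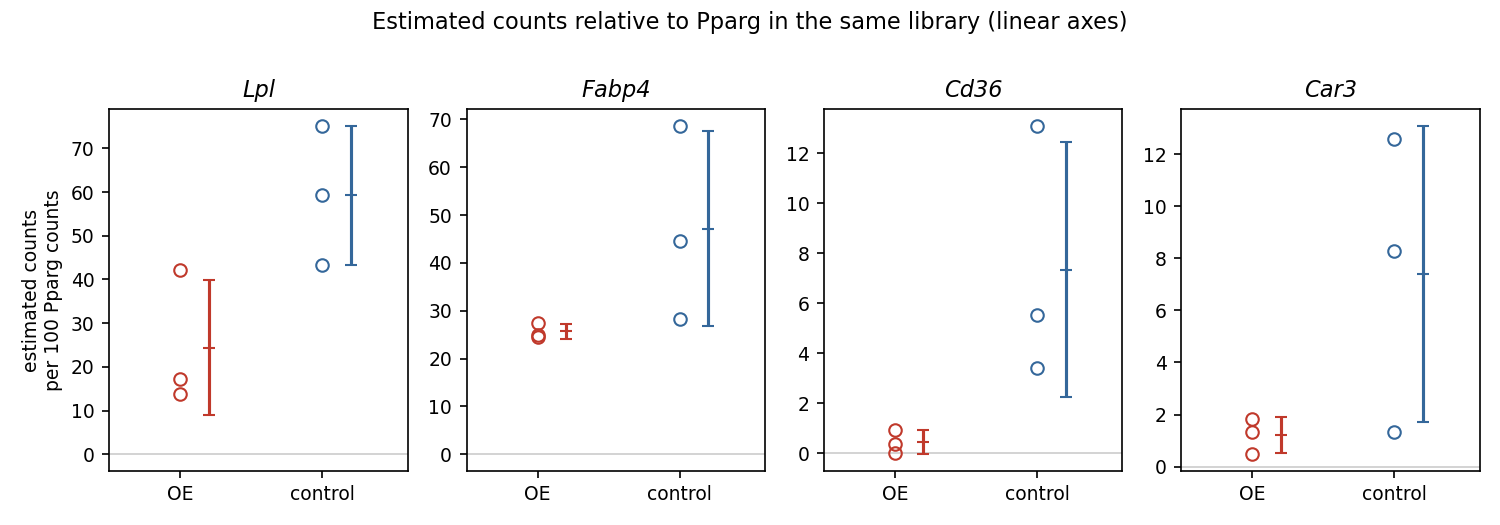
Open circles are estimated counts of Lpl, Fabp4, Cd36 and Car3 per 100 counts of Pparg in each HIF1A-AS3 overexpression library (OE, red) and each vector control library (blue); bars show the mean and SD (n = 3). Fabp4 lies within 24.6 to 27.4 in overexpression tumours and spreads from 28.3 to 68.7 in controls.

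The 3 members tested had a median log2 fold change of -0.56 and all 12637 genes one of 0.01. The sign was negative for 2 of the 3, Fabp4 and Lpl, beside 49.4% of all genes. A median over 3 genes that passed a filter describes those genes and not the whole set of 9. Over 15 other settings of the analysis the log2 fold change of Lpl stayed between -1.52 and -0.93, that of Fabp4 between -0.93 and -0.28 and that of Pparg between -0.04 and 0.43. The adjusted p of Lpl ranged from 0.16 to 1 over these settings, and in none of them did a member that entered the test reach an adjusted p below 0.05.

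**Figure D3:**
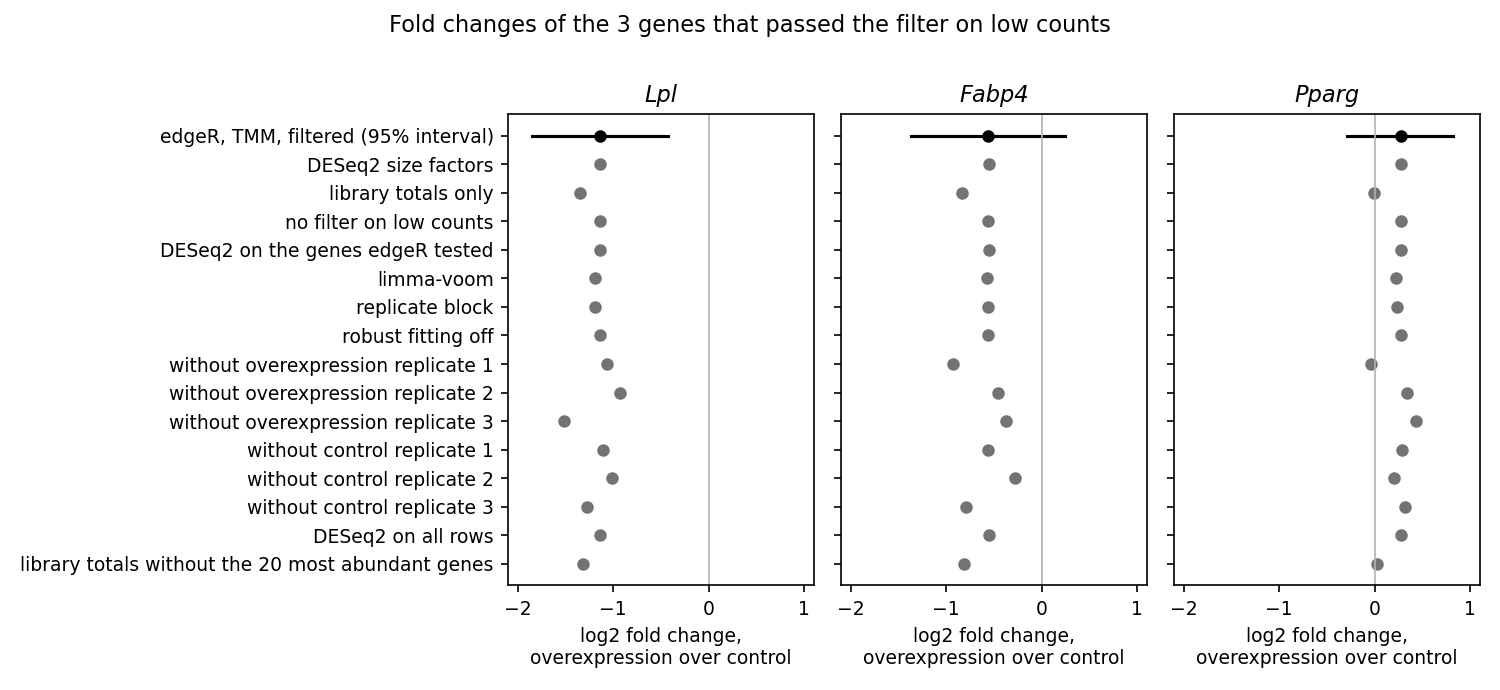
Points are the log2 fold changes, overexpression over control, of Lpl, Fabp4 and Pparg under each setting of the analysis; the black point and line at the top are the edgeR estimate and its 95% interval, which excludes 0 for Lpl and includes it for Fabp4 and Pparg. Lpl lies below 0 in every setting shown, and Pparg lies on either side of it.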

How the data were processed

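One library per tumour was sequenced from total RNA, per the labels' protocols. The authors deposited 1 table of estimated counts per mouse gene, not normalized, whose name points to salmon. The submitters' processing notes name, with no role for each, DESeq2, edgeR, featureCounts 2.0.6, HISAT2 2.2.1, Trimmomatic 0.39 and the build mm10; the sources used here do not give the annotation release. All columns were matched to tumours by name. Gene names come from the list of members: 0 IDs of the table were found in the name tables used here, so 14 lists of 149 further symbols (other adipocyte, lipid and cell type genes) were not analysed and no gene of similar pattern could be named. The members and lists were chosen with earlier results of these data known.

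Estimated counts were rounded and analysed in R 4.3.3 with edgeR 4.0.16: filterByExpr at its defaults, TMM, robust quasi-likelihood F-test with group only, Benjamini-Hochberg adjustment over the 12637 genes tested, threshold 0.05. Standard errors were derived as the log2 fold change over the square root of F. All 9 members were to be named, by rule. Alternatives used DESeq2 1.42.0, limma 3.58.1, other scalings, no filter, a replicate block and leaving out each library. The fits were tested on simulated data. Even the most alike libraries (controls 1 and 3) showed 3.92 times the variance that sampling alone would give, so none was a repeat sequencing of another. That check covers sampling error only and does not tell whether libraries shared a mouse.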

Additional observations from a re-analysis of the deposited data

How the results depend on the processing

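DESeq2 on all rows and totals without the 20 most abundant genes were chosen after seeing the data. No member passed in any of 15 alternatives. The count of all genes changed, 2 in edgeR (795 at an unadjusted p below 0.05), was 4 with library totals only, 4 with totals without the 20 most abundant genes, 14 with no filter on low counts, 28 with DESeq2 on the filtered genes, 29 with it on all rows, 7 with limma-voom and 0 with a replicate block (414 at an unadjusted p below 0.05). Leaving out 1 library gave 0 to 14: 0 when overexpression replicate 3 (947 unadjusted) or control replicate 1 (327) was left out, 1 for overexpression replicate 1 and 14 for overexpression replicate 2. Among the 3 members tested, the number whose groups did not overlap, 1 (Lpl), was 1 to 2 with a library left out: Fabp4 joined without overexpression replicate 1 or control replicate 3. Those are the 2 libraries through which its groups overlapped, so leaving out either parts them. The share over all genes was not computed for these smaller sets. The log2 fold change of Pparg, 0.27, was -0.01 with library totals only and -0.04 to 0.43 with a library left out, the lowest without overexpression replicate 1. Totals lowered the median of all genes to -0.21, by construction of the scaling. Cd36 entered the test in 4 of the 6 sets with a library left out, at -4.69 to -3.43, and Car3 likewise, at -2.69 to -1.76. Neither passed. Both entered only where controls 1 and 2, their highest libraries, were kept. The ranges therefore cannot show how far the values depend on those controls.

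The labels do not say that replicate numbers pair tumours, so the numbers were not treated as pairs. Same-numbered libraries correlated at -0.09, -0.34 and -0.10 in their deviations from group means. Such deviations cancel out within each small group, so these correlations cannot decide whether tumours were paired. With the replicate block the log2 fold changes of Lpl, Fabp4 and Pparg were -1.19, -0.56 and 0.23, each at an adjusted p of 0.95 in edgeR. At this depth none of the 4 adipocyte products had more than 4 counts in a library, and none of them passed the filter on low counts.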
